A study of Mus musculus with 4 samples.

Results

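Cells of the conventional type 1 dendritic class (cDC1) were chosen from CD45-enriched cells of mouse tumours by their transcripts, and 220 of 20607 kept cells met the criteria, 109 of 9990 in the IL_27 matrix and 111 of 10617 in the control matrix. A kept cell had at least 200 genes, at least 500 UMIs (unique transcript counts) and under 10% of them mitochondrial. A cDC1 cell further had at least 1 UMI of Xcr1 or Clec9a and a UMI of at least 2 of Xcr1, Clec9a, Wdfy4, Cadm1, Naaa and Irf8. It had at most 1 UMI of Ccr7 and Fscn1 together, at most 2 of the C1q genes, at most 4 of S100a8 and S100a9, none of the Cd3 genes and at most 1 of Krt8 and Krt18. These genes chose the cells, so their levels are a description and not a finding.

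B6C3F1 mice aged 6 to 8 weeks carried subcutaneous tumours of OV2944-HM1, a mouse ovarian cancer line. In the IL_27 group, 100 ng of recombinant mouse IL-27 per mouse was injected into the tumour every other day, and the control group received vehicle by the same route, both from the day of implantation. Immune cells were enriched with CD45 beads on day 14 and loaded on a droplet 5′ single-cell kit. Each group has 2 entries in the labels but 1 matrix that pools them, and how many mice each matrix holds is not given in the sources used here, so the groups are 1 sample each, no test between them is possible, and every difference below is between those matrices. The IL_27 matrix held 43868189 UMIs over 10183 barcodes and the control matrix 54049661 UMIs over 10784 barcodes. The chosen cells held 1289471 UMIs (median 9410 per cell) in IL_27 and 1236668 UMIs (median 8742) in control. Their median mitochondrial share was 2.17% in IL_27 and 1.30% in control. Only 2 of the chosen cells, both in IL_27, had a barcode that also occurs in the other matrix. Levels are given in CPM (a gene's UMIs summed over the chosen cells of a matrix, scaled to those cells' total UMIs). All intervals are exact 95% intervals that cover counting error only.

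Conventional dendritic cells take up antigen in tissues and present it to T cells. The type 1 subset depends on the transcription factors Irf8 and Batf3, recognises dead cells through the receptor Clec9a, and carries Xcr1, the receptor for the chemokine Xcl1 made by NK and CD8 T cells. In mouse tumours this subset is best known for cross-presentation, the loading of engulfed tumour antigen on MHC class I. On maturation, dendritic cells switch on the lymph node homing receptor Ccr7 and the actin-bundling protein Fscn1, and the criteria above limited both. IL-27 is a cytokine of the IL-12 family that signals through Il27ra and Il6st to STAT factors such as Stat3.

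Most of the chosen cells carried the genes that name the class, and a small set did not. A UMI of Naaa, a lysosomal amidase, was seen in 85 of 109 IL_27 cells and 89 of 111 control cells. Plet1, a surface protein that the criteria did not use, was seen in 84 IL_27 cells and 89 control cells, with a median of 8 UMIs (0 to 121) per IL_27 cell and 11 UMIs (0 to 87) per control cell. Xcr1 and Clec9a were seen together in 39 IL_27 cells and 46 control cells, Xcr1 alone in 21 and 18, and Clec9a alone in 49 and 47. Cells with both receptors were the deepest, with a median of 18827 UMIs in IL_27 and 17958 UMIs in control, against 7820 and 5944 UMIs in cells with Clec9a alone.

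Among the cells that went against the name were 16 IL_27 cells and 6 control cells with UMIs of Siglech. Siglech is a lectin that marks plasmacytoid dendritic cells, the interferon-producing lineage. Each of the 16 and 6 cells had at least 10 Siglech UMIs in IL_27 and at least 6 in control, while no other chosen cell had a single one. In these cells Xcr1 and Naaa were at 0 UMIs in both matrices, and Plet1 had 1 UMI in IL_27 and 0 in control. They entered through Clec9a, of which they held 28 UMIs in IL_27 and 12 in control. Further genes of the plasmacytoid marker list followed the same split: Klk1 and Cox6a2 had 194 and 297 UMIs in the 16 IL_27 cells, 85 and 111 UMIs in the 6 control cells, and 0 in all other chosen cells of both matrices. Tcf4, the transcription factor that specifies the plasmacytoid lineage, stood at 1272 CPM in Siglech+ and 21.3 CPM in Siglech- cells of IL_27, and at 763 and 33.9 CPM in control. Cst3, the protease inhibitor cystatin C, which was picked after its values were seen, stood at 893 CPM in Siglech+ and 28575 CPM in Siglech- cells of IL_27, and at 885 and 33553 CPM in control. The Siglech+ cells made up 14.7% (interval 8.63 to 22.7) of the chosen cells in IL_27 and 5.41% (2.01 to 11.4) in control, a ratio of 2.72 (1.01 to 8.47). Results below are therefore given with all chosen cells and, where it matters, with the 93 IL_27 and 105 control cells without Siglech. Of these, 83 IL_27 and 89 control cells had a Plet1 UMI. Some without it were deep, such as an IL_27 cell with 14349 UMIs, 2 of the 6 genes and 248 Il1b UMIs. A control cell without Plet1 had 19217 UMIs, 3 of the 6 genes and 50 Il1b UMIs. Leaving out the Siglech+ cells therefore did not remove every doubtful cell.

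**Figure D1:**
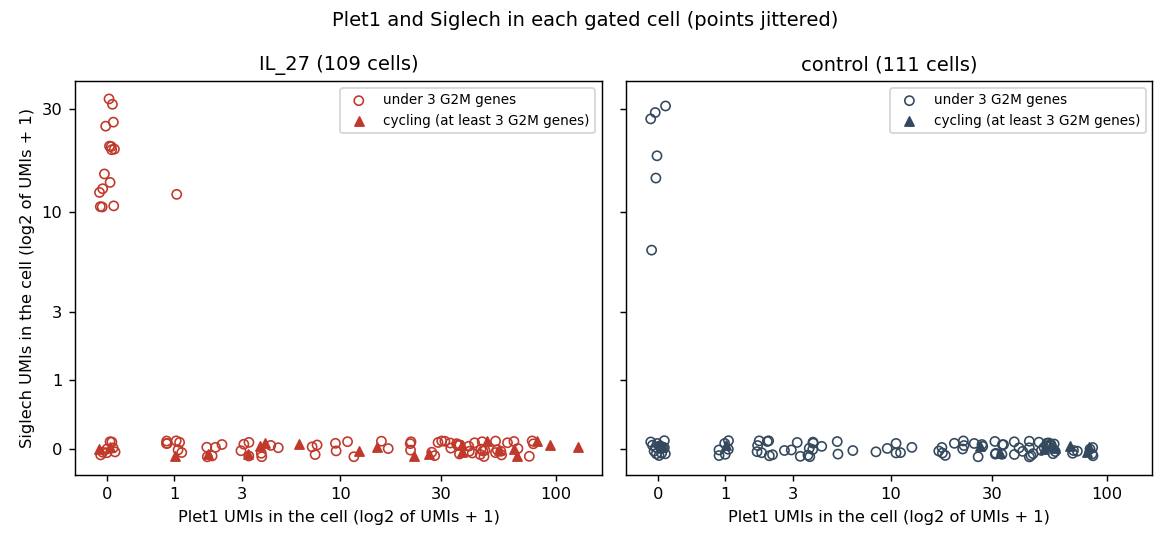
Siglech UMIs (y axis) against Plet1 UMIs (x axis) in each chosen cell, both on a log2 scale of UMIs + 1 with small jitter, for IL_27 (left, 109 cells) and control (right, 111 cells), filled triangles marking cells with at least 3 G2M genes. The 16 IL_27 and 6 control cells with Siglech stand apart at 0 or 1 Plet1 UMIs, and none of them is a triangle.

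Compared with the other dendritic gates of the same tumours, the chosen cells stood out by a compact set of genes that the gates did not use. The comparison cells were 37 IL_27 and 28 control cells chosen for type 2 genes (cDC2, for example Cd209a and Clec10a) and 91 IL_27 and 60 control cells chosen for Ccr7 and Fscn1 (mature dendritic cells). Of 3141 genes compared, 153 were at least 2-fold higher in the chosen cells than in either of those gates in both matrices, and 26 were at least 5-fold higher. Plpp1, a lipid phosphatase, stood at 105 CPM in the chosen IL_27 cells and 154 CPM in the control ones, with 0 UMIs in cDC2 of both matrices and 1 and 2 UMIs in mature cells. Lpar6, a receptor for lysophosphatidic acid, stood at 129 CPM in IL_27 and 142 CPM in control, against at most 12.6 CPM in the other gates. Clec12a, an inhibitory lectin that senses dead cells, reached 79.1 CPM in IL_27 and 91.4 CPM in control. Btla, an inhibitory receptor that binds Tnfrsf14, reached 155 CPM in IL_27 and 221 CPM in control, against at most 25.6 CPM in the other gates. Mpeg1, the pore-forming protein perforin-2, was the most abundant of the 15 named genes in CPM, at 996 CPM in IL_27 and 930 CPM in control, where the other gates held at most 130.3 CPM. Siglech+ cells held Mpeg1 at 2208 CPM in IL_27 and 1804 CPM in control, and Siglech- cells at 823 and 887 CPM. Ppt1, a lysosomal thioesterase, stood at 384 CPM in IL_27 and 568 CPM in control, against at most 81.0 CPM. Hepacam2, Gpr141b, Arsb, Mctp1, Agpat3, Rtl8c and Slpi complete the set with Cox6a2 and Klk1, whose UMIs all came from the Siglech+ cells. Neutrophils held Slpi at 1958.5 CPM in IL_27 and 1967 CPM in control, against 106 and 77.6 CPM in the chosen cells.

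At the other end, the calcium-binding protein S100a4 stood at 120 CPM in IL_27 and 50.9 CPM in control, where cDC2 held 1677 and 1130.5 CPM and mature cells 1130 and 873 CPM. Cebpb, a transcription factor of monocytic cells, stood at 163 CPM in IL_27 and 89.0 CPM in control, against 943 and 1307 CPM in cDC2. Marcksl1, a membrane-actin linker of mature dendritic cells, stood at 69.8 CPM in IL_27 and 59.0 CPM in control, against 826 and 1059 CPM in mature cells. These are differences between cells chosen for different transcripts, given as a description.

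**Figure D2:**
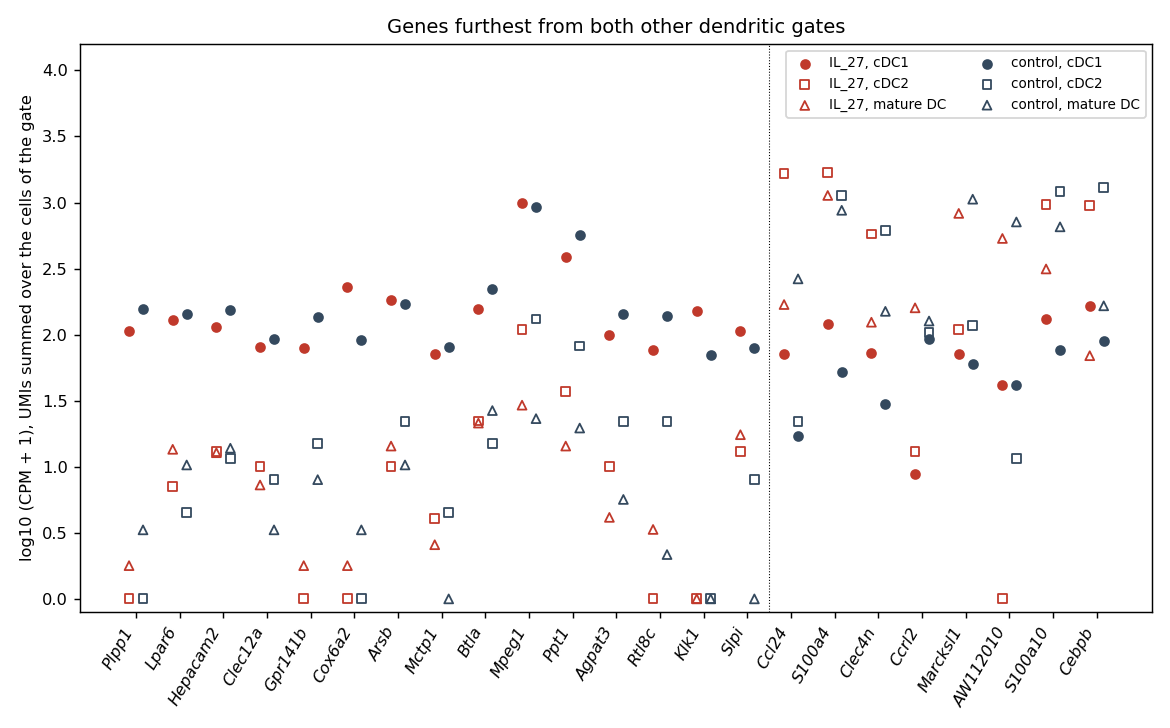
CPM (log10 of CPM + 1, y axis) of the 15 genes with the highest and, right of the dotted line, the 8 with the lowest level in the chosen cells relative to both other dendritic gates, with circles for the chosen cells, squares for cDC2 and triangles for mature dendritic cells. IL_27 (red) and control (dark) circles lie close together for most genes, as for Mpeg1 at 996 and 930 CPM.

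The limit on Ccr7 and Fscn1 left out a set of cells with similar Plet1 and with more cytokine and chemokine transcripts. The positive criteria were met by 202 IL_27 and 200 control cells, and 61 IL_27 and 56 control cells were kept out for Ccr7 or Fscn1 alone. These had a median of 19534 UMIs in IL_27 and 19880 UMIs in control, above the chosen cells. Their Plet1 stood at 1999 CPM in IL_27 and 2294 CPM in control, against 1859 and 2117 CPM in the chosen cells. Naaa, one of the genes both sets were chosen by, stood at 816 and 851 CPM, against 990 and 923 CPM in the chosen cells. Fscn1 was seen in only 3 of the 61 IL_27 and 7 of the 56 control cells, and 3 and 5 of them met the mature gate. They differed from the chosen cells in Ccl22, a chemokine for Ccr4+ T cells, at 269 CPM in IL_27 and 143 CPM in control, against 31.0 and 14.6 CPM in the chosen cells. Il12b, the shared subunit of IL-12 and IL-23, stood at 103 CPM in the left-out IL_27 cells and 13.3 CPM in the left-out control cells, and at 4.65 and 4.04 CPM in the chosen cells. Ccl5, a chemokine for T cells, stood at 222 CPM in the left-out IL_27 cells and 87.8 CPM in the left-out control cells, and at 3.10 and 2.43 CPM in the chosen cells. Il1b stood at 2106 and 1999 CPM in the left-out cells of IL_27 and control, and at 1209 and 1234 CPM in the chosen cells. Just inside the limit, the 15 IL_27 and 14 control cells with exactly 1 UMI of Ccr7 or Fscn1 had medians of 8538 and 12202 UMIs, and just outside it the 6 IL_27 and 7 control cells with exactly 2 had medians of 20120 and 14954 UMIs. Lifting this limit gave 170 IL_27 and 167 control cells, which serve below as the wider set. At the lower edge, the 16 IL_27 and 22 control cells with exactly 2 of the 6 genes had medians of 1617 and 1410 UMIs, and Plet1 was seen in 8 of the 16 and 11 of the 22. The 13 IL_27 and 14 control cells with 1 of the 6 genes only were left out, and Plet1 was seen in 7.69% and 35.7% of them.

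The share of these cells was close between the matrices. They made up 1.09% (interval 0.897 to 1.31) of kept cells in IL_27 and 1.05% (0.861 to 1.26) in control, a ratio of 1.04 (0.794 to 1.37). The ratio was 0.941 (0.704 to 1.26) without the Siglech+ cells and 1.08 (0.869 to 1.35) in the wider set. A difference within these intervals was not detectable at this depth. Among cells of all 3 dendritic gates they made up 46.0% in IL_27 and 55.8% in control, a ratio of 0.825 (0.627 to 1.08). Mature cells numbered 91 in IL_27 and 60 in control, a ratio of their shares of kept cells of 1.61 (1.15 to 2.27). Shares were measured after bead enrichment.

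More of the chosen cells carried cell division transcripts in IL_27 than in control. A cell was called cycling when at least 3 of 20 genes of the G2 and M phases had a UMI. Shares were taken with and without thinning each cell to 2000 UMIs, which left out 17 IL_27 and 23 control cells. After thinning, 13 of 92 IL_27 cells (14.1%, interval 7.74 to 23) and 3 of 88 control cells (3.41%, 0.709 to 9.64) met this count, a ratio of 4.14 (1.14 to 22.7). Without thinning the counts were 21 of 109 IL_27 cells (19.3%) and 9 of 111 control cells (8.11%), a ratio of 2.38 (1.04 to 5.89). Wherever cycling cells are named below, these 21 and 9 cells called without thinning are meant. None of the cycling cells carried Siglech, and without the Siglech+ cells the unthinned shares were 22.6% in IL_27 and 8.57% in control. Of the cells left out for Ccr7 or Fscn1 alone, 15 of 61 in IL_27 (24.6%) and 14 of 56 in control (25%) met it without thinning, a ratio of 0.984 (0.443 to 2.2). The calls rest on transcripts alone. In the wider set the unthinned shares were 21.2% in IL_27 and 13.8% in control, a ratio of 1.54 (0.887 to 2.72) whose interval includes 1. After thinning, the wider set gave 11.2% in IL_27 and 6.99% in control, a ratio of 1.60 (0.692 to 3.91). Neutrophils, which do not divide, gave 0.399% in IL_27 and 0% in control on the thinned scale, with medians of 1781 and 2339 UMIs. Thinned shares in T cells were 7.44% in IL_27 and 11.2% in control, and in macrophages 9.54% and 7.67%. In cDC2, 0 of 36 thinned IL_27 cells and 2 of 24 control cells (8.33%) met the count. Their intervals were 0 to 9.74% and 1.03 to 27.0%. Mature dendritic cells had 0 of 88 thinned cells in IL_27, which allows a share of up to 4.11%, and 0 of 59 in control, which allows up to 6.06%.

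**Figure D3:**
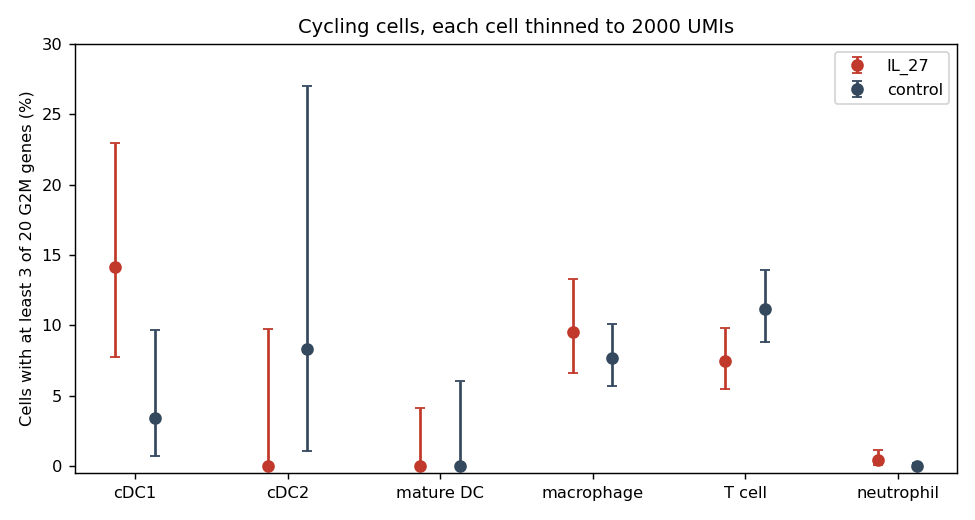
Share of cells with at least 3 of 20 G2M genes (percent, y axis) in 6 gated classes after thinning each cell to 2000 UMIs, IL_27 in red and control in dark, with exact 95% binomial intervals as bars. The chosen cells stand at 14.1% in IL_27 and 3.41% in control, while in T cells the IL_27 share of 7.44% is below the control share of 11.2%.

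UMIs of the 20 G2M genes, which also define the cycling cells, numbered 1065 in IL_27 and 267 in control. Of the S phase UMIs, 1267 in IL_27 and 626 in control, 70.3% and 43.9% lay in the cycling cells. Of 5294 genes with at least 50 UMIs over both matrices, 688 were at least 1.5-fold higher in IL_27 (13% of genes) and 298 at least 1.5-fold lower (5.63%), with no test behind these counts. Of the 20 G2M genes 7 had at least 50 UMIs and all 7 were at least 1.5-fold higher, and of the 20 S phase genes 15 had them and 12 were higher and none lower, with median log2 ratios of 1.67 and 1.18 beside 0.08 over all genes. A gene can reach 50 UMIs through 1 matrix alone, and the other 13 G2M and 5 S phase genes did not reach it. Top2a, the topoisomerase that untangles chromosomes, had 179 UMIs in IL_27 and 33 in control (139 and 26.7 CPM), a ratio of 5.20 (3.57 to 7.79). A single control cell held 63.6% of its control UMIs, and without the top cell of each matrix the ratio was 12.2 (6.77 to 24.1). Mki67, the proliferation antigen Ki-67, had 218 UMIs in IL_27 and 61 in control, a ratio of 3.43 (2.57 to 4.63). Among replication genes, the helicase subunits Mcm5 and Mcm6 had 59 and 64 UMIs in IL_27 and 24 and 27 UMIs in control, ratios of 2.36 (1.44 to 3.96) and 2.27 (1.43 to 3.71). A further subunit, Mcm2, had 51 UMIs in IL_27 and 5 in control, 3 of these in a single cell. Pcna, the sliding clamp of DNA polymerase, had 212 UMIs in IL_27 and 110 in control, a ratio of 1.85 (1.46 to 2.35). In the wider set the G2M and S phase medians were 0.61 and 0.73, Top2a had a ratio of 1.73 (1.44 to 2.09) and Mki67 of 1.32 (1.12 to 1.56). With the cycling cells left out, 4 S phase genes had enough UMIs and their median was 0.02. Among genes below that minimum in these cells, Mcm2 had 20 UMIs in IL_27 and 0 in control, Top2a 10 and 1, and Atad2 15 and 4, a ratio of 4.46 (1.42 to 18.4).

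Promoters of division genes that moved together are shown for letters that factors known to act in these phases bind. Sequences are from RefSeq on GRCm38.p6, 250 bases before to 50 after the start. Mcm5 (chr8:75109259-75109558, plus strand) and Mcm6 (chr1:128359656-128359955, minus strand) carry the letters TTTNNCGC of the E2F factors, which turn on S phase genes, in capitals here. Overlapping matches on opposite strands lie 153 and 149 bases before the start in Mcm5 and 110 and 106 bases before it in Mcm6, which has a further match at 47 bases.
Mcm5: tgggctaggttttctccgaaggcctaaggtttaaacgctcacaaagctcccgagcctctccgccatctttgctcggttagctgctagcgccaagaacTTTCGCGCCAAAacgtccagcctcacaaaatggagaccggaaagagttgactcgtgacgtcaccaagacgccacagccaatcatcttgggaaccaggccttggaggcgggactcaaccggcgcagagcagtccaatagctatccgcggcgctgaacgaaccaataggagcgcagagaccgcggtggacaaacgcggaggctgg
Mcm6: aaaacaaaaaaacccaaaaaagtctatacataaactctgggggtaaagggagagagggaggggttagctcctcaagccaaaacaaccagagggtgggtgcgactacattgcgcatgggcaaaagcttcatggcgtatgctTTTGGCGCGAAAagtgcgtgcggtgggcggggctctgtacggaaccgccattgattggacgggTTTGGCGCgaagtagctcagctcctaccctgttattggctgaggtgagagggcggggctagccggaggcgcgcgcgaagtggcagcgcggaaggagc
On either strand these letters occur in 9 of 21 promoters of the S phase list (42.9%) against 9.16% of the promoters of the genes measured in the chosen cells and 5.17% of all 32851 promoters of the table.

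The promoters of Top2a (chr11:99024140-99024439, minus strand) and Mki67 (chr7:135716330-135716629, minus strand) are shown for the CCAAT letters bound by the factor NF-Y, in capitals, with 6 matches in Top2a and 3 in Mki67.
Top2a: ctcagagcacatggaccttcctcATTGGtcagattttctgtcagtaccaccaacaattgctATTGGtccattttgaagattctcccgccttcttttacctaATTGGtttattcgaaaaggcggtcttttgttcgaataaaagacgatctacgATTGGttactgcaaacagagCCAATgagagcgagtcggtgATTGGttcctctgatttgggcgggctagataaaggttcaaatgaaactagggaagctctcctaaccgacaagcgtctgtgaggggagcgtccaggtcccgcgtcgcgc
Mki67: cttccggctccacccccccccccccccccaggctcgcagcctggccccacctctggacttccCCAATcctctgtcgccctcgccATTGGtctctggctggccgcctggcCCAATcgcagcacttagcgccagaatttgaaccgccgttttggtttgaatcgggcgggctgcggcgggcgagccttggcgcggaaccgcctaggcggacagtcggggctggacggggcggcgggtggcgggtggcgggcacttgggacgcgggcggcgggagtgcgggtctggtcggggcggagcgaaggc
These letters occur on either strand in 16 of 18 promoters of the G2M list (88.9%), against 36.7% of the promoters of the genes measured in the chosen cells and 37.4% of all promoters. A match describes the letters and is no evidence of binding.

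**Figure D4:**
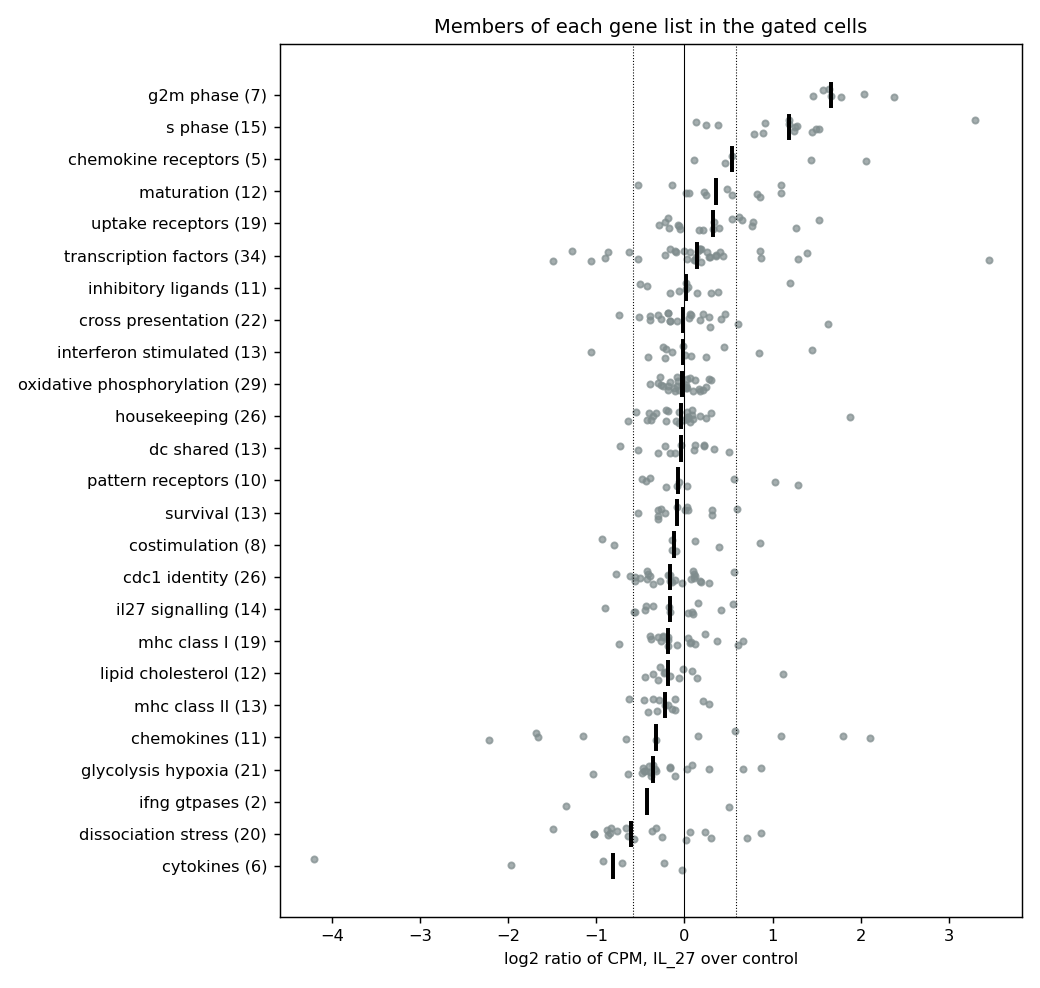
log2 ratio of CPM (IL_27 over control, x axis) of each member with at least 50 UMIs (grey points) of 25 gene lists (rows, number of measured members in brackets), with the list median as a black bar and 1.5-fold as dotted lines. The G2M and S phase medians lie at 1.67 and 1.18 and the cytokine median at -0.82, while oxidative phosphorylation centres on -0.03.

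Genes of the criteria and markers of other cell types were not ranked. Of the 12 highest ratios among ranked genes with at least 100 UMIs, 9 were replication histones such as Hist1h4d. Hist1h4d had 332 UMIs in IL_27 and 34 in control, a ratio of 9.36 (6.57 to 13.8). It was seen in 42.2% of IL_27 cells and 17.1% of control cells, and in 17.4% and 3.41% after thinning, against 2.66% and 1.76% of thinned neutrophils. Hist1h3c, Hist1h3b, Hist1h2an, Hist2h2bb, Hist1h2ao, Hist1h2ap, Hist1h2ae and Hist2h2ac had ratios between 5.35 and 19.4, and Atad2, a chromatin ATPase, of 6.57. Histone copies are nearly identical in sequence, so how the counting split reads between them is uncertain. A single IL_27 cell held 74% of the Hist1h3b UMIs and 72% of the Hist2h2bb UMIs. With the cycling cells left out, Hist1h4d still had a ratio of 2.53 (1.53 to 4.29), while 6 of the other 8 histones were below 1, on at most 14 UMIs a matrix. In all other kept cells the Hist1h4d ratio was 2.55, above 1 as well.

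Hmox1, the heme-degrading enzyme, had 104 UMIs in 17 IL_27 cells and 8 UMIs in 6 control cells, a ratio of 12.5 (6.10 to 29.6). The ratio was 14.1 (6.88 to 33.6) with the cycling cells left out and 9.03 (5.62 to 15.3) in the wider set, against 1.12 in all other kept cells and 2.25 in mature dendritic cells. In cDC2 it had 4 UMIs in IL_27 and 14 in control, a ratio of 0.246 (0.0590 to 0.783). Of the 104 IL_27 UMIs in the chosen cells, the top cell held 29% and 3 cells held 51.9%. Macrophages held Hmox1 at 599 CPM in IL_27 and 297 CPM in control, and neutrophils at 249 and 304 CPM. The chosen cells stood at 80.7 and 6.47 CPM. Slc7a11, the cystine importer that feeds glutathione synthesis, had 155 UMIs in IL_27 and 25 in control (120 and 20.2 CPM), a ratio of 5.95 (3.88 to 9.47), and 4.52 (3.52 to 5.88) in the wider set. It was seen in 32.1% of IL_27 cells and 7.21% of control cells, and in 14.1% and 5.68% after thinning. Slc7a11 was higher in IL_27 in other cells too. Its ratio was 2.25 (1.58 to 3.26) in cDC2, 2.28 (1.86 to 2.80) in mature dendritic cells and 1.64 in all other kept cells. Neutrophils of these tumours held Slc7a11 at 3093 CPM in IL_27 and 1494 CPM in control, and T cells at 57.1 and 27.1 CPM, so the chosen control cells, at 20.2 CPM, lay below the control T cells. The part of free neutrophil RNA in the Slc7a11 difference was not tested.

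**Figure D5:**
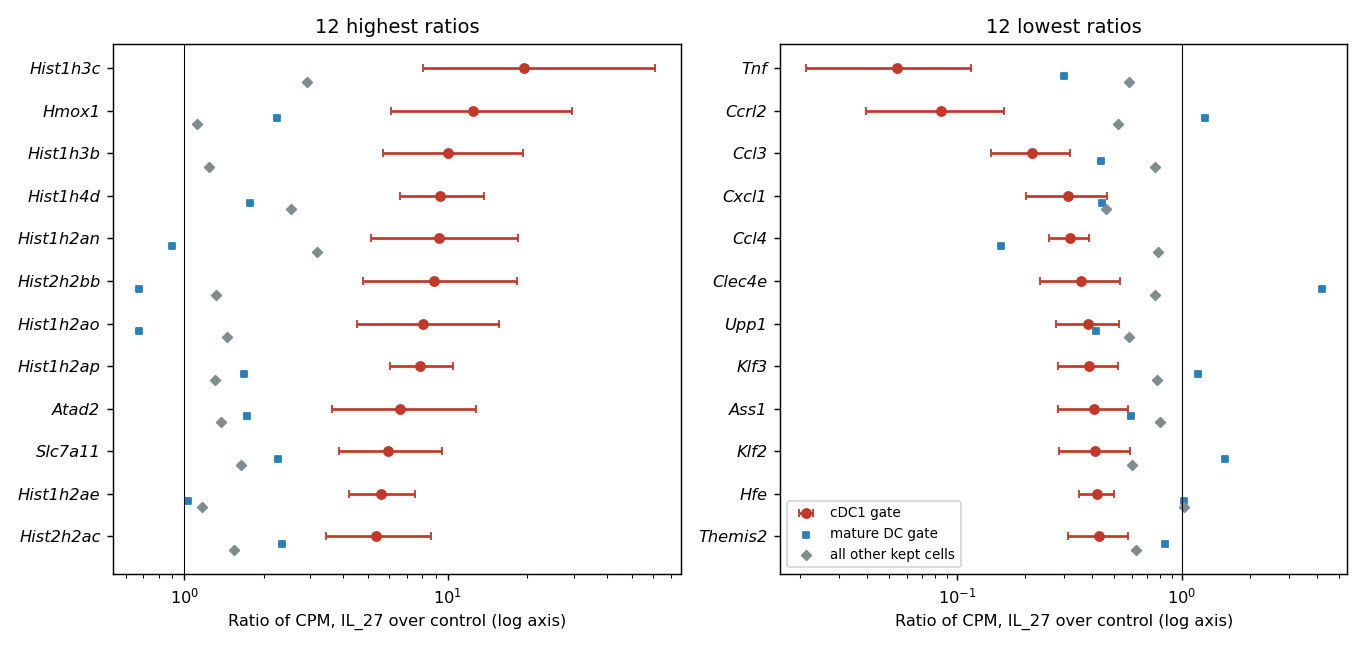
Ratio of CPM, IL_27 over control (log x axis), of the 12 ranked genes with the highest and the 12 with the lowest ratio in the chosen cells (red circles with exact 95% intervals). Ratios in mature dendritic cells (blue squares) and in all other kept cells (grey diamonds) are drawn where both matrices had UMIs. Hfe stands at 0.418 in the chosen cells and at 1.02 in all other kept cells, and Hmox1 at 12.5 and 1.12, while cDC2, not drawn, stood at 0.178 for Hfe and 0.246 for Hmox1.

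Among the lowest ratios, Hfe and Klf3 were spread over many cells. Hfe, a membrane protein that restrains iron uptake through the transferrin receptor, had 185 UMIs in IL_27 and 424 in control (143 and 343 CPM), a ratio of 0.418 (0.350 to 0.498). A cell had a median of 0 UMIs (0 to 12) in IL_27 and 2 UMIs (0 to 27) in control, so the ranges overlap. It was seen in 47.7% of IL_27 cells and 69.4% of control cells, and after thinning in 19.6% and 42.0%, against 0.666% and 0.294% of thinned neutrophils. No chosen cell held more than 6.5% of its UMIs in either matrix, and the ratio was 0.453 (0.379 to 0.540) without the Siglech+ cells and 0.530 (0.470 to 0.598) in the wider set. In cDC2 Hfe was lower too, with 6 UMIs in IL_27 and 29 in control, a ratio of 0.178 (0.0605 to 0.437). Tfrc, the transferrin receptor and a member of the housekeeping list, had 46 UMIs in IL_27 and 12 in control, a ratio of 3.68 (1.92 to 7.62). Klf3, a transcriptional repressor, had 63 UMIs in IL_27 and 157 in control, a ratio of 0.385 (0.283 to 0.519), and was seen in 30.3% and 54.1% of cells. Its ratio was 0.387 (0.307 to 0.485) in the wider set and 0.771 in all other kept cells. Klf2, a related factor that keeps cells quiescent, had a ratio of 0.412 (0.285 to 0.588), Themis2, a signalling adaptor, of 0.426 (0.312 to 0.576), Ass1, an enzyme of arginine synthesis, of 0.405 (0.280 to 0.576), and Upp1, a uridine phosphorylase, of 0.382 (0.274 to 0.526).

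Several inflammatory genes with low ratios had most of their UMIs in few cells. The cytokine Tnf had 7 UMIs in 5 IL_27 cells and 124 UMIs in 11 control cells, a ratio of 0.0541 (0.0213 to 0.115), and 3 control cells held 91.9% of the control UMIs. The chemokine Ccl3, which attracts leukocytes, had 32 UMIs in IL_27 and 143 in control, a ratio of 0.215 (0.141 to 0.317), and its relative Ccl4 had 131 and 397 UMIs, a ratio of 0.316 (0.258 to 0.387). Ccl4 was seen in 25 IL_27 and 31 control cells, and its ratio without the top cell of each matrix was 0.364 (0.288 to 0.456). The Siglech+ cells held 58 of its IL_27 and 147 of its control UMIs. Without them Ccl4 stood at 64.7 CPM in IL_27 and 212 CPM in control, a ratio of 0.305 (0.232 to 0.398). For Cxcl1, a neutrophil attractant, 1 control cell held 81% of the 102 control UMIs, and without the top cell of each matrix the ratio was 0.762 (0.360 to 1.58). Ccrl2, a chemerin-binding receptor, had 10 UMIs in IL_27 and 113 in control, and Clec4e, a receptor for mycobacterial and dead cell glycolipids, had 35 and 94 UMIs. Neutrophils carried these genes at far higher levels, with Tnf at 1066 CPM in IL_27 and 1648 CPM in control and Ccl3 at 8352 and 8760 CPM, against 5.43 and 100.3 CPM of Tnf and 24.8 and 116 CPM of Ccl3 in the chosen cells. Of the neutrophil markers that the criteria did not limit, 3 were scarce in the chosen cells and Il1r2 was not. Csf3r had 3 UMIs in IL_27 and 1 in control, Cxcr2 1 and 3, and Retnlg 0 in both. Il1r2, a decoy receptor for IL-1, had 853 UMIs in 64 IL_27 cells and 897 UMIs in 67 control cells.

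Across the cytokine list, 4 of 6 measured genes were at least 1.5-fold lower in IL_27 and none higher, and the median log2 ratio was -0.82. Beside these and the chemokine counts below, 13% of all genes were higher and 5.63% lower. Il1b, the inflammasome cytokine, was abundant in sum and nearly equal, with 1559 UMIs in 62 IL_27 cells and 1526 UMIs in 61 control cells, a ratio of 0.980 (0.912 to 1.05). Its median was 1 UMI per cell in each matrix, and 3 cells held 34.2% of the IL_27 and 26.9% of the control UMIs. The 26 IL_27 and 25 control cells with at least 10 Il1b UMIs held 1 and 8 UMIs in all of S100a8, S100a9, Csf3r, Cxcr2 and Retnlg, the first 2 of which the criteria limited. Neutrophils held Il1b at 12542 CPM in IL_27 and 17379 CPM in control, and T cells at 488 and 682 CPM, below the 1209 and 1234 CPM of the chosen cells. Il12b had 6 UMIs in IL_27 and 5 in control, and Il27 had none in either. Of 11 measured chemokines, 5 were lower and 3 higher, the lower ones including Cxcl2, a neutrophil attractant, with 1231 UMIs in IL_27 and 1870 in control, a ratio of 0.631 (0.587 to 0.679), which was 0.763 (0.721 to 0.807) in the wider set and 0.831 (0.769 to 0.898) without cycling and Siglech+ cells, and Cxcl9, an attractant of Cxcr3+ T cells, with 44 and 94 UMIs, 56% of the control ones in 1 cell. The higher ones were Ccl22, Ccl9 and Ccl24, each with at most 90 UMIs in IL_27.

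The identity list holds the genes that chose the cells in both matrices, Xcr1, Clec9a, Naaa, Wdfy4, Cadm1 and Irf8, so its values are a description. Of 26 measured members of the identity list, 2 were at least 1.5-fold lower in IL_27 and none higher, with a median log2 ratio of -0.16. Over all genes 13% were higher and 5.63% lower, so the lower counts in this paragraph are near the share over all genes. Xcr1 had 234 UMIs in IL_27 and 209 in control, a ratio of 1.07 (0.887 to 1.30), and Batf3 had 97 and 82 UMIs, a ratio of 1.13 (0.837 to 1.54). Irf8 had 894 UMIs in IL_27 and 957 in control, a ratio of 0.896 (0.817 to 0.982). The Irf8 ratio was 0.731 (0.660 to 0.809) without the Siglech+ cells, which held it at 1526 CPM in IL_27 and 538 CPM in control. It was 1.05 (0.943 to 1.16) without the cycling cells, 0.814 (0.722 to 0.917) without both, and 0.787 (0.732 to 0.845) in the wider set. Plet1 had 2397 UMIs in IL_27 and 2618 in control, a ratio of 0.878 (0.830 to 0.928). The 2 lower members were Gpr141b and Slamf8, with ratios of 0.584 (0.451 to 0.752) and 0.651 (0.419 to 1.00). Among the broader dendritic genes, 1 of 13 passed 1.5-fold, the myeloid factor Spi1 (PU.1), with 455 UMIs in IL_27 and 727 in control, a ratio of 0.600 (0.533 to 0.676).

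Antigen presentation genes lay at or a little below the control level. The list counts here stand beside 13% higher and 5.63% lower over all genes. Counts near these shares, such as 2 of 19 or 2 of 22 higher, are no result about a list. Of 13 measured MHC class II genes, 1 was lower, H2-Ob, a modulator of peptide loading, at 0.647 (0.506 to 0.825), and none was higher, with a median log2 ratio of -0.22. Cd74, the invariant chain that escorts class II molecules, had a median of 110 UMIs per IL_27 cell (0 to 1104) and 216 UMIs per control cell (0 to 1227). It stood at 20090 CPM in IL_27 and 27623 CPM in control, a ratio of 0.727 (0.716 to 0.739) from 25905 and 34161 UMIs. The ratio was 0.762 (0.750 to 0.775) without the Siglech+ cells and 0.828 in all other kept cells. H2-Aa, an alpha chain of the class II molecule itself, had a ratio of 0.806 (0.785 to 0.827). In the class I list, 2 of 19 members were higher and 1 lower, the lower one being Psmb10, an immunoproteasome subunit, at 0.598 (0.478 to 0.745), and B2m, the light chain of class I, was at 1.05 (0.963 to 1.14). In the cross-presentation list, 2 of 22 were higher and 1 lower. The higher member with the larger ratio was Cybb, the phagosomal oxidase subunit, with 180 UMIs in IL_27 and 56 in control, of which 154 and 44 lay in the Siglech+ cells. Among 8 measured costimulatory genes, Cd40, the receptor for T cell help, had a ratio of 1.81 (1.10 to 3.03) on 49 UMIs in IL_27 and 26 in control, while Slamf7 and Sema4a had ratios of 0.523 (0.392 to 0.692) and 0.575 (0.362 to 0.902). In the inhibitory ligand list, 1 of 11 was higher, and Cd274, the PD-1 ligand PD-L1, had 381 UMIs in IL_27 and 360 in control.

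Both chains of the receptor for the injected cytokine gave few transcripts. Il27ra had 2 UMIs in each matrix, below the floor of 3 counts, and Il6st had 43 in IL_27 and 53 in control, a ratio of 0.778 (0.508 to 1.19). The whole pathway list summed to 4296 UMIs in IL_27 and 4967 in control, and its 14 measured genes had a median log2 ratio of -0.17. Stat3 had a ratio of 1.12 (0.928 to 1.34) and its feedback inhibitor Socs3 of 1.03 (0.841 to 1.26). Of 13 measured interferon-stimulated genes, 2 were higher and 1 lower, near the 13% higher and 5.63% lower over all genes. The lower one was Isg15, a ubiquitin-like modifier, with 50 UMIs in IL_27 and 100 in control. Its ratio was 0.480 (0.334 to 0.680), and 0.494 in all other kept cells. The Isg15 ratio was 0.719 (0.494 to 1.04) without the cycling cells, 0.836 (0.566 to 1.22) without these and the Siglech+ cells, and 0.721 (0.588 to 0.883) in the wider set, and so under 1.5-fold in each. The higher ones were Ifi211 and Ly6a, a surface protein with 252 UMIs in IL_27 and 89 in control, a ratio of 2.72 (2.12 to 3.50), against 0.838 in all other kept cells.

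The counts of the following lists stand beside 13% higher and 5.63% lower over all genes, and shares near these are no result about a list. Of 19 measured uptake and lysosome genes, 6 were higher and none lower, among them Ctsl, a lysosomal protease, at 1.71 (1.36 to 2.18) and Lamp1, a lysosomal membrane protein, at 1.58 (1.26 to 1.98), and the median of 0.32 was 0.08 without the Siglech+ cells. Of 12 measured maturation genes, 4 were higher and none lower, each with under 140 UMIs in IL_27, such as Socs2, a cytokine signalling inhibitor, with 49 UMIs in IL_27 and 22 in control. Among 34 measured transcription factors 5 were higher and 6 lower. Tcf4 was higher at 2.61 (2.03 to 3.40) with all chosen cells and stood at 0.627 (0.362 to 1.07) without the Siglech+ cells. Of 20 measured genes of the immediate-early and heat shock response to tissue dissociation, 10 were lower and 2 higher, with a median log2 ratio of -0.61. Zfp36, which destabilises cytokine messages, had 825 UMIs in IL_27 and 1409 in control, a ratio of 0.562 (0.515 to 0.612), and 0.622 in all other kept cells, and the antiproliferative gene Btg2 had 774 and 1370 UMIs, a ratio of 0.542 (0.495 to 0.592). The median mitochondrial share, 2.17% in IL_27 and 1.30% in control, differed beside them, and its part was not tested. Of 21 measured glycolysis and hypoxia genes, 2 were higher and 2 lower, with a median of -0.36. Aldoa, a glycolytic aldolase, had 680 UMIs in IL_27 and 1337 in control, a ratio of 0.488 (0.444 to 0.535), against 0.641 in all other kept cells. None of 29 measured oxidative phosphorylation genes passed 1.5-fold in either direction, and of 26 housekeeping genes 1 was higher and 1 lower. In the chemokine receptor list, the oxysterol receptor Gpr183 had 45 UMIs in IL_27 and 16 in control. Of 10 measured pattern receptors 2 were higher, of 12 lipid genes 1, and of 13 survival genes 1, with none lower in any of these lists, and 1 of 12 and 1 of 13 lie below the share over all genes. Of 18 interferon gamma GTPases and their relatives 2 could be measured, and Gbp5 was lower, with 16 UMIs in IL_27 and 39 in control.

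Counts over all genes depend on the cells and the scale. With ratios centred on their median, 559 genes were higher and 410 lower (57.7% higher, against 69.8% of the called genes on the CPM scale). Without the Siglech+ cells, 517 of 4884 genes were higher and 293 lower, and in the wider set 634 of 7133 were higher and 323 lower. Among marker lists of other cells, the plasmacytoid list summed to 1902 UMIs in IL_27 and 925 in control, the cDC2 list to 815 and 613, and the mature dendritic list to 121 and 78. T cell markers summed to 125 UMIs in IL_27 and 82 in control, NK cell markers to 164 and 192, B or plasma cell markers to 238 and 99, and endothelial markers to 48 and 31. The 6 fibroblast markers were all at 0 in both matrices, tumour cell markers summed to 12 UMIs in IL_27 and 5 in control, mast cell or basophil markers to 2 and 0, and red cell markers to 1 and 0. The neutrophil list summed to 930 UMIs in IL_27 and 945 in control, of which Il1r2, a decoy receptor for IL-1, gave 853 and 897. The macrophage list summed to 322 and 285 UMIs, and the monocyte list to 1170 and 595, of which Ly6c2 in the Siglech+ cells gave 282 and 103.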

How the data were processed

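Cells were sequenced with a droplet 5′ kit, and the deposited values are raw UMI counts per gene and cell, 1 matrix per group. Per the submitters' processing notes, Cell Ranger 4.0, Seurat 3.2.0 and the mm10 build were used by the authors; the role of each step is not given in the sources used here. Members and gene lists were chosen with earlier results of these data known. From the counts, cells were filtered and chosen as described above, counts were summed per matrix, and ratios of CPM were taken with exact conditional intervals (Python 3.11.15, numpy 2.4.6, scipy 1.17.1, pandas 2.3.3, scanpy 1.11.5, matplotlib 3.10.9). With 1 matrix per group there is no test, and a gene counts as higher or lower at 1.5-fold with at least 50 UMIs. The genes named are the 12 highest and 12 lowest ratios among ranked genes, the 15 and 8 genes of the dendritic comparison, and list members. Ranked genes had at least 100 UMIs and a UMI in at least 5% of the cells of the matrix with the higher CPM. Genes of the gates and mitochondrial, ribosomal protein, T cell receptor and antibody segment, hemoglobin and predicted genes were left out of both choices. Markers of other cell types were also left out of the 12 highest and 12 lowest ratios. Scrublet called 167 of 9990 IL_27 cells and 0 of 10617 control cells, so it did not work, and doublets were otherwise untreated. Barcodes found in both matrices numbered 133. Results for some list members are not reported here.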

Additional observations from a re-analysis of the deposited data

How the results depend on the processing

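No paired analysis was possible because each group is 1 matrix, and for the same reason no replicate could be left out. The share ratio stayed within its interval in every alternative run, between 0.868 and 1.11. Counts of genes depended on depth and scale. At least 20 UMIs gave 1333 higher and 659 lower, at least 100 UMIs 311 and 148, cells thinned to 2000 UMIs 121 and 92, and the mean of per-cell CPM 1125 and 549. Cells with 4 of 6 markers gave 456 higher, and leaving out cycling and Siglech+ cells 400. Of 390 list medians under alternatives 361 stayed on the same side of 1.5-fold, and direction was not compared for medians under 1.5-fold in the main setting. Of 404 values of named genes 384 kept direction and side. Log2 ratios past 1.5-fold in the main setting turned round in these cases. Thinning gave Hist2h2bb -0.064. Without exclusion criteria Cebpb was -0.43 and Sirpa -0.18, and with 4 of 6 markers Cebpb was -0.46. Leaving out cells with any UMI of the excluded genes gave Cxcl9 0.22. Without the highest Scrublet scores Cxcl1 was 0.88 and Il1a 0.35. Without Siglech+ cells Tcf4 was -0.67. Without cycling cells Hist1h3c was -1.34, Hist1h3b -0.75, Hist2h2bb -0.17, Hist1h2ap -0.014, Hist1h2ae -0.56, Hist2h2ac -1.17 and Mki67 -2.07. With both left out Hist1h3c, Hist1h3b and Hist2h2bb were -0.53, Hist1h2ap -0.31, Hist1h2ae -1.02, Hist2h2ac -1.535, Mki67 -1.86 and Tcf4 -0.61, each from few UMIs. The cause was not tested.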
